A study of Rattus norvegicus with 10 samples.

Results

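Oxidative phosphorylation was followed through 100 of the 32545 genes in the count table. The rule that chose the members uses gene names and no measured value. The mitochondrially encoded class was the 13 names that begin with Mt-, and the nuclear encoded class was the 87 names that begin with Nduf followed by a, b, c, s or v and a digit, with Uqcr, with Cox4 to Cox8 or with Atp5, or that are Sdha, Sdhb, Sdhc or Sdhd. Assigned by the start of the gene name alone, the nuclear class held 36 genes of complex I, 4 of complex II, 8 of complex III, 20 of complex IV and 19 of complex V. Of the 100 members, 88 passed the filter on low counts and were tested, which were all 13 mitochondrial and 75 nuclear genes, among 15032 tested genes in all.

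Oxidative phosphorylation makes most of the ATP of a neuron. Complexes I to IV of the inner mitochondrial membrane pass electrons from NADH and succinate to oxygen. Complexes I, III and IV pump protons, and complex V, the ATP synthase, uses the proton gradient to make ATP. Complexes I, III, IV and V are built from subunits of both genomes, so that mitochondrial DNA, which is transcribed as long polycistronic RNAs inside the organelle, and scattered nuclear genes have to supply parts of the same machines, while all subunits of complex II are nuclear encoded.

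RNA was taken from the CA1 region, microdissected from hippocampal slices of adult male Wistar rats aged 5 to 7 weeks, and sequenced after depletion of ribosomal RNA in 5 groups of 2 libraries. Every repeat used 2 slices from 2 biological samples, and slices were collected 1 h after the treatment, which followed 30 min of basal stimulation. The SKF group received the compound SKF, an agonist of dopamine D1/D5 receptors, which was also present in the groups SKF+Aβ, SKF+Aβ+CSP and SKF+Aβ+CSP‐TTK21. Aβ stands for oligomers of the amyloid peptide Aβ(1–42) at 200 nM, CSP for the glucose-derived carbon nanosphere that serves as carrier, and CSP‐TTK21 for the carrier with TTK21, which activates the histone acetyltransferases CBP and p300, with 0.36 μg/ml for either particle. The group CSP‐TTK21 alone had neither SKF nor Aβ, and the untreated group is not analysed here.

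Total counts in units of 1e+06 were between 6.75 and 8.47 per library, so that 3 counts correspond to 0.354 to 0.444 counts per 1e+06 counts (CPM). The labelled tissue is hippocampus. Of the 5 listed CA1 pyramidal markers, 4 were in the table and 3 were detected, with 734 to 2662 counts of Wfs1, while Fibcd1 was listed at 0 in all 10 libraries. Markers of dentate granule and CA3 cells were also counted in every library. Among the marker lists reported here, interneuron markers (Gad1 and Gad2) were the list whose sum was lower in both SKF libraries, at 299 and 310 normalized CPM, than in the other 8 libraries, at 315 to 459. Over the 10 libraries the sums were 2367 to 3406 for neuron markers, 827 to 1604 for astrocyte, 48.5 to 105 for microglia, 34.2 to 81.6 for endothelial, 9.54 to 32.3 for meningeal, 0.29 to 4.602 for choroid plexus and 44.6 to 67.2 for erythrocyte markers. Neuron marker sums were 2664 and 2367 in SKF, 2713 and 3406 with SKF+Aβ, 2838 and 3134 with SKF+Aβ+CSP, and 3128 and 3069 with SKF+Aβ+CSP‐TTK21. With CSP‐TTK21 alone they were 2571 and 2791. Meningeal sums were 9.54 and 12.7 in SKF and 15.2 and 27.9 with SKF+Aβ. Apart from neuron, interneuron and meningeal markers, the lists reported here overlapped between SKF and SKF+Aβ. The part of these markers in the results was not tested. Since whole tissue was sequenced, fewer cells of a type and less RNA per cell cannot be told apart.

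Mitochondrially encoded transcripts made up the smallest share of the library in SKF. They took 3.58 and 5.52% of all counts in the SKF libraries, 6.20 and 5.91% with SKF+Aβ, 7.33 and 6.05% with SKF+Aβ+CSP, 6.39 and 7.71% with SKF+Aβ+CSP‐TTK21, and 5.88 and 6.69% with CSP‐TTK21 alone. Both SKF libraries lay below the other 8, and they were also further apart than the libraries of any other group. Group means were 4.55 ± 1.37% in SKF, 6.05 ± 0.204% with SKF+Aβ, 6.69 ± 0.907% with SKF+Aβ+CSP, 7.05 ± 0.932% with SKF+Aβ+CSP‐TTK21 and 6.28 ± 0.571% with CSP‐TTK21 alone (SD, n = 2).

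The nuclear encoded class did not share this order. Its genes took 0.640 and 0.701% of counts in SKF, 0.578 and 0.697% with SKF+Aβ, 0.620 and 0.556% with SKF+Aβ+CSP, 0.688 and 0.712% with SKF+Aβ+CSP‐TTK21, and 0.643 and 0.724% with CSP‐TTK21 alone. The SKF libraries sat within the range of the others, and the smallest mean was that of SKF+Aβ+CSP. The ratio of mitochondrial to nuclear counts was 5.599 and 7.86 in SKF, 10.7 and 8.47 with SKF+Aβ, 11.8 and 10.9 with SKF+Aβ+CSP, 9.29 and 10.8 with SKF+Aβ+CSP‐TTK21, and 9.13 and 9.23 with CSP‐TTK21 alone. Within each library this ratio does not depend on the library total, and both SKF libraries were again below the other 8. For 2 against 2 libraries the smallest p-value of an exact permutation test is 0.333. Shares and ratios are given with no test.

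**Figure D1:**
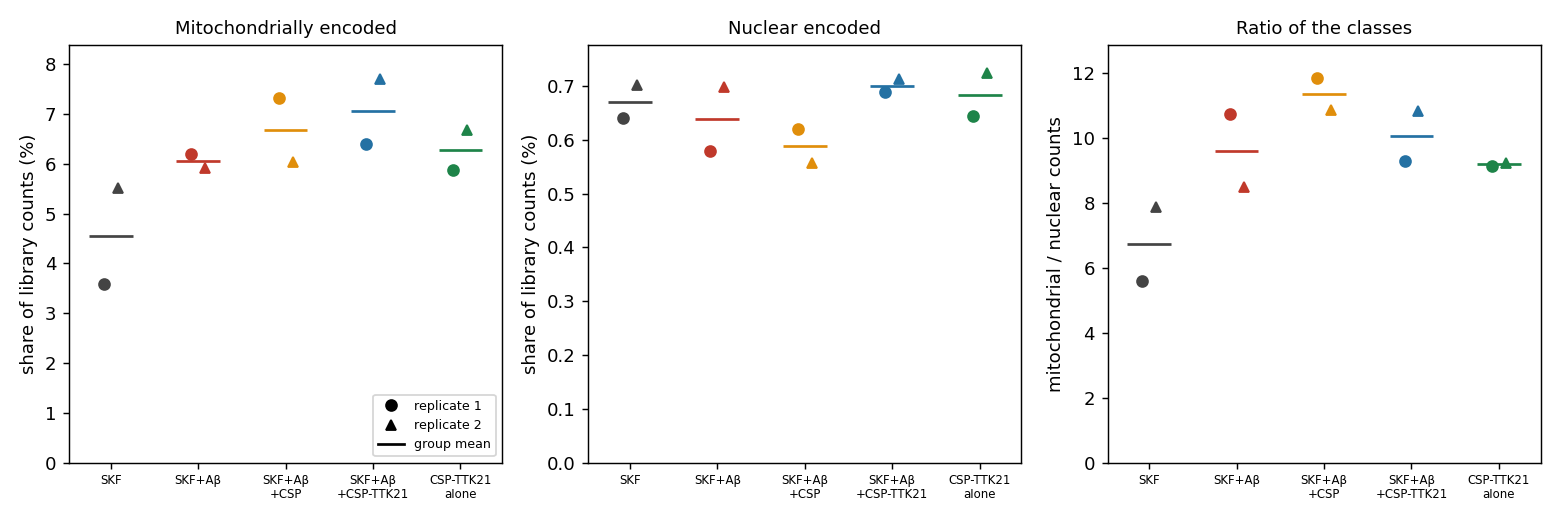
Share of library counts in percent taken by the 13 mitochondrially encoded genes (left) and the 87 nuclear encoded genes (middle), and the ratio of their counts (right), with circles for replicate 1, triangles for replicate 2 and lines for group means (n = 2). The SKF libraries, at 3.58 and 5.52%, lie below the other 8 in the left panel and within their range in the middle panel.

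Single mitochondrial genes followed the class. The largest differences from SKF were those of Mt-nd4, a proton-pumping subunit in the membrane arm of complex I. Normalized CPM of Mt-nd4, which are CPM with library totals adjusted by TMM factors, were 125 and 197 in SKF, 292 and 245 with SKF+Aβ, 364 and 296 with SKF+Aβ+CSP, 337 and 372 with SKF+Aβ+CSP‐TTK21, and 239 and 278 with CSP‐TTK21 alone. All 8 libraries of the other groups were above both SKF libraries. The log2 fold change against SKF was 0.74 with SKF+Aβ, 1.03 with SKF+Aβ+CSP, 1.14 with SKF+Aβ+CSP‐TTK21 and 0.69 with CSP‐TTK21 alone, each with a standard error of 0.19. Adjusted p-values from the quasi-likelihood test in edgeR, adjusted by the method of Benjamini and Hochberg, were 0.0601, 0.0572, 0.0800 and 0.633, so that the gene missed the threshold of 0.05 in all 4 comparisons. The Mt-nd4 row held 0.354 to 0.505% of the counts of its class. Over all libraries it held 20240 counts, against 33685 for Mt-nd4l and 437749 for Mt-nd5, with no allowance for gene length. Why the row held so few was not tested. The reading frames of Mt-nd4l and Mt-nd4 overlap, so that the split of reads between these rows is uncertain.

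Mt-co1 encodes the catalytic subunit of complex IV, where oxygen is reduced. Its normalized CPM were 6561 and 11904 in SKF, 14034 and 14511 with SKF+Aβ, 16919 and 15082 with SKF+Aβ+CSP, 17092 and 18801 with SKF+Aβ+CSP‐TTK21, and 12638 and 16193 with CSP‐TTK21 alone. The 8 other libraries were all above SKF, with log2 fold changes of 0.63, 0.79, 0.96 and 0.64 (standard errors 0.22 to 0.23). The adjusted p-values in edgeR were 0.124, 0.102, 0.0982 and 0.633.

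Mt-nd2, another membrane-arm subunit of complex I, had 2683 and 4244 normalized CPM in SKF and 4632 to 6866 in the other 8 libraries. Its log2 fold changes against SKF were 0.55, 0.79, 0.82 and 0.51 (standard error 0.20). Mt-nd5 was at 4695 and 5318 normalized CPM in SKF and between 5540 and 7157 elsewhere. Mt-nd6 was at 887 and 976 in SKF and between 1074 and 1451 elsewhere. Mt-nd6 is the only member transcribed from the opposite strand of mitochondrial DNA, and whether the counting used the strand is not stated. Mt-nd5 and Mt-nd6 were also the 2 mitochondrial genes with the smallest spread between the SKF libraries.

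The other 8 mitochondrial genes overlapped between SKF and at least 1 other library. Mt-cytb, the only complex III subunit of mitochondrial DNA, had 4823 and 7602 normalized CPM in SKF, and 6 of the 8 other libraries were above both. For Mt-co2, which takes up electrons from cytochrome c, the SKF values were 2822 and 3706, and for Mt-cox3, the remaining core subunit of complex IV, they were 4561 and 7454. Above both SKF libraries were 6 of the 8 others for Mt-co2 and 4 of 8 for Mt-cox3. Of the membrane part of the ATP synthase, Mt-atp6 had 4395 and 7672 in SKF and was higher in 7 of 8, and Mt-atp8 had 180 and 310 in SKF and was higher in 4 of 8. The complex I genes Mt-nd1, Mt-nd3 and Mt-nd4l were higher than both SKF libraries in 5, 5 and 4 of the other 8. The reading frames of Mt-atp8 and Mt-atp6 also overlap.

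Each of the 13 genes had its lowest value of all 10 libraries in SKF replicate 1. The summed markers of astrocytes (827 normalized CPM, against 1339 in SKF replicate 2), interneurons, dentate granule cells and meningeal cells were also lowest in this library, and those of microglia (54.9 against 103) and CA1 pyramidal cells (318 against 474) were lower than in SKF replicate 2. Endothelial (75.5 against 45.8) and neuron markers (2664 against 2367) were higher than in SKF replicate 2. Their part in the difference was not tested. SKF replicate 2 was higher than replicate 1 in all 13, by a factor of 1.10 for Mt-nd6 to 2.15 for Mt-nd4l. The median difference between the SKF libraries was 0.71 on the log2 scale, against 0.21 for the 75 nuclear genes and 0.01 for all genes. In the other groups the median difference of the mitochondrial class between replicates was -0.07 with SKF+Aβ, -0.37 with SKF+Aβ+CSP, 0.32 with SKF+Aβ+CSP‐TTK21 and 0.17 with CSP‐TTK21 alone. The median difference between the SKF libraries was thus as large as the median differences between SKF and the other groups.

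As fitted by edgeR, all 13 mitochondrial genes had a higher mean than SKF in each of the 4 groups, which share the same SKF libraries. The median log2 fold change of the class was 0.40 with SKF+Aβ, 0.54 with SKF+Aβ+CSP, 0.70 with SKF+Aβ+CSP‐TTK21 and 0.47 with CSP‐TTK21 alone, where the median of all tested genes was between -0.01 and 0.00. The smallest and the largest of the 13 were 0.17 and 0.74 with SKF+Aβ, 0.29 and 1.03 with SKF+Aβ+CSP, 0.34 and 1.14 with SKF+Aβ+CSP‐TTK21, and 0.16 and 0.69 with CSP‐TTK21 alone. Without SKF replicate 1, the medians were 0.07, 0.19, 0.34 and 0.10. Without SKF replicate 2, they were 0.84, 0.96, 1.16 and 0.88. The direction was kept in both cases, and the size depended on which SKF library was the baseline.

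**Figure D2:**
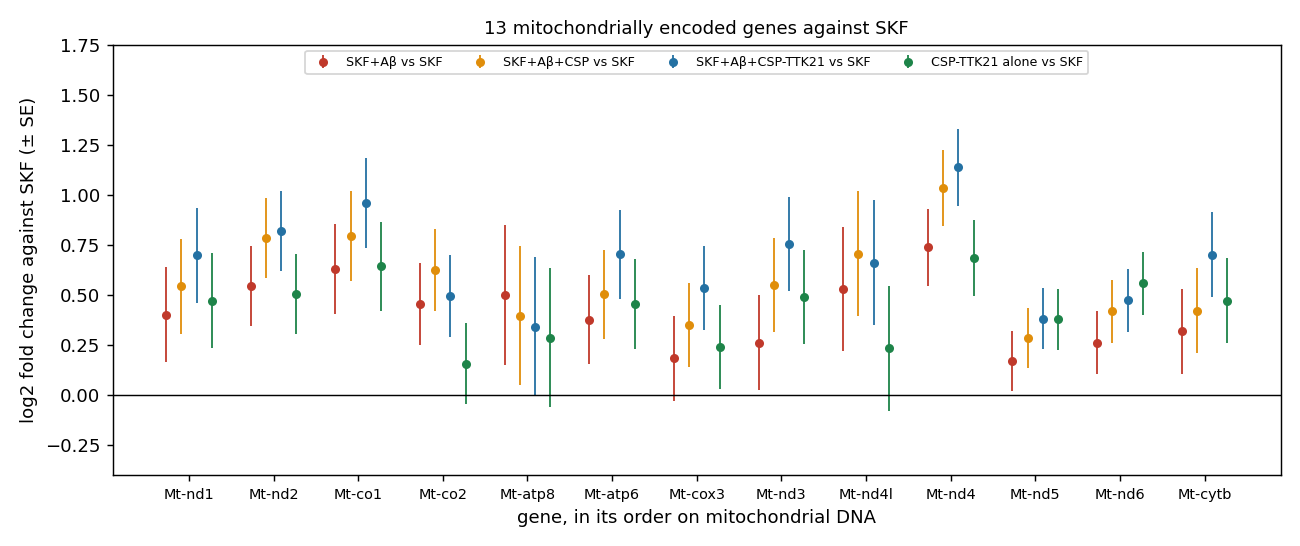
Log2 fold change against SKF, with a standard error derived from the edgeR test, for the 13 mitochondrially encoded genes. They are ordered as on mitochondrial DNA, with a colour for each of the 4 groups. All points lie above 0, and Mt-nd4 has the highest value in each group, from 0.69 to 1.14.

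At an adjusted p-value under 0.05, edgeR called 0 of the 13 mitochondrial genes in any of these comparisons. Among all tested genes 2.08% were called for SKF+Aβ vs SKF, 0.02% for SKF+Aβ+CSP vs SKF, 0.00665% for SKF+Aβ+CSP‐TTK21 vs SKF and 0% for CSP‐TTK21 alone vs SKF. Limma-trend also called 0, while DESeq2 called 3 with SKF+Aβ (Mt-nd4, Mt-co1 and Mt-nd2), 4 with SKF+Aβ+CSP (the same genes with Mt-co2), 6 with SKF+Aβ+CSP‐TTK21 and 0 with CSP‐TTK21 alone. DESeq2 also called more of all genes than edgeR, namely 8.93, 4.62, 4.58 and 0.02% of those to which it gave an adjusted p-value. With no filter on low counts, edgeR called 6, 9, 11 and 7 of the 13, and 1311, 754, 902 and 157 of all 25251 genes. At an unadjusted p-value under 0.05 in edgeR, 4 of 13 were higher with SKF+Aβ, where 12% of all genes were, and 9 of 13 with SKF+Aβ+CSP, against 10.3% of all genes. With SKF+Aβ+CSP‐TTK21, 11 of 13 were higher at this level, against 10.8% of all genes, and with CSP‐TTK21 alone 6 of 13, against 4.16%. Of the 13, 0 were lower at this level, where 10.9, 9.03, 8.78 and 3.63% of all genes were. Mt-nd4, Mt-co1 and Mt-nd2 were the 3 genes with an unadjusted p-value under 0.05 in all 4 comparisons.

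Over the 5 groups together, edgeR's F test called 0 of the 88 members at an adjusted p-value under 0.05, against 0.00665% of all genes, and DESeq2's likelihood ratio test called 4, where it called 4.89% of all genes with an adjusted p-value. The lowest adjusted p-values in edgeR were 0.173 for Mt-nd4 and 0.212 for Ndufs7. At an unadjusted p-value under 0.05 were 5 of 13 mitochondrial genes, 11 of 75 nuclear genes and 14.3% of all genes. Both SKF libraries were below the other 8 for 5 of 13 mitochondrial genes (Mt-nd2, Mt-co1, Mt-nd4, Mt-nd5 and Mt-nd6) and for 3 of 75 nuclear genes (Uqcrc2, Atp5s and Ndufb3), against 9.58% of all genes. Both were above the other 8 for 0 mitochondrial and 6 nuclear genes (Ndufb7, Ndufs7, Ndufv1, Ndufb2, Atp5d and Uqcrc1), against 7.48% of all genes. Ndufb3, Ndufv1, Ndufb2, Atp5d and Uqcrc1 are named after their values were seen. The nuclear shares, 3 and 6 of 75, were thus below and close to the background, and the mitochondrial share was above it in the direction of lower SKF values.

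Among the nuclear genes, Ndufb7 was the only member called by edgeR, 1 of 75 in the comparison SKF+Aβ vs SKF where 2.08% of all genes were called. DESeq2 also called Ndufb7 there, with Uqcrc2 and Atp5d. It called 5 nuclear genes for SKF+Aβ+CSP vs SKF (Ndufb7, Ndufs7, Ndufv1, Atp5d and Cox6a1) and 4 for SKF+Aβ+CSP‐TTK21 vs SKF (Uqcrc2, Cox6c, Ndufs5 and Ndufa4), and Cox6a1 and Ndufa4 are named after their values were seen. Ndufb7 encodes an accessory subunit of complex I on the side of the intermembrane space. Its normalized CPM were 38.7 and 33.6 in SKF, 16.8 and 23.0 with SKF+Aβ, 22.9 and 19.2 with SKF+Aβ+CSP, 23.8 and 28.8 with SKF+Aβ+CSP‐TTK21, and 29.0 and 23.1 with CSP‐TTK21 alone. Both SKF libraries were above the other 8. Ndufb7 fell by 0.87 on the log2 scale for SKF+Aβ vs SKF (standard error 0.20, adjusted p = 0.0444 in edgeR), and the call was lost when either SKF library, either SKF+Aβ library, either SKF+Aβ+CSP library or replicate 1 of CSP‐TTK21 alone was left out, with fold changes between -1.13 and -0.67 over all such fits. In the other 3 groups its log2 fold changes against SKF were -0.78, -0.46 and -0.47, with adjusted p-values of 0.0885, 0.216 and 0.633.

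Ndufs7 encodes the subunit that holds the last iron-sulfur cluster before ubiquinone in complex I. It was at 32.6 and 35.4 normalized CPM in SKF, 23.5 and 29.2 with SKF+Aβ, 19.1 and 19.9 with SKF+Aβ+CSP, 26.5 and 31.9 with SKF+Aβ+CSP‐TTK21, and 29.8 and 30.5 with CSP‐TTK21 alone. Both SKF+Aβ+CSP libraries were below the other 8, and both SKF libraries were above the other 8. The log2 fold change was -0.80 for SKF+Aβ+CSP vs SKF (standard error 0.17, adjusted p = 0.0655 in edgeR) and 0.58 for SKF+Aβ+CSP‐TTK21 against SKF+Aβ+CSP, where its standard error was 0.17 (adjusted p = 0.517 in edgeR).

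Uqcrc2, a core subunit of complex III, went with the mitochondrial genes. Its normalized CPM were 102 and 113 in SKF, 146 and 153 with SKF+Aβ, 142 and 135 with SKF+Aβ+CSP, 170.4 and 143 with SKF+Aβ+CSP‐TTK21, and 121 and 152 with CSP‐TTK21 alone. Both SKF libraries were below the other 8. The log2 fold changes against SKF were 0.48, 0.36, 0.54 and 0.34 (standard error 0.14), and the adjusted p-values in edgeR were 0.0840, 0.194, 0.109 and 0.633. Ndufb7 and Uqcrc2 were the 2 nuclear members with an unadjusted p-value under 0.05 in all 4 comparisons with SKF, in opposite directions.

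Promoters of these 3 genes are printed because Ndufb7 was called, Ndufs7 had the lowest p-value of the nuclear class over the 5 groups and Uqcrc2 had the opposite direction in all 4 comparisons with SKF, and because promoters of nuclear subunit genes are known to share a few short motifs. The sequences come from RefSeq (build GRCr8) and run from 250 bases before to 30 bases after the annotated start, 5′ to 3′ on the strand of the gene. Capitals mark a match to CCGGAAGT, the motif of the ETS family that includes GABPA, or to AAGATGGC, the motif of YY1. Ndufb7 lies at chr19:41477262-41477541 on the minus strand, with the ETS motif at base 235 of the printed run. Ndufs7 lies at chr7:10110469-10110748 on the minus strand, with the YY1 motif at base 255. Uqcrc2 lies at chr1:184598990-184599269 on the plus strand and holds none of the motifs searched.
Ndufb7: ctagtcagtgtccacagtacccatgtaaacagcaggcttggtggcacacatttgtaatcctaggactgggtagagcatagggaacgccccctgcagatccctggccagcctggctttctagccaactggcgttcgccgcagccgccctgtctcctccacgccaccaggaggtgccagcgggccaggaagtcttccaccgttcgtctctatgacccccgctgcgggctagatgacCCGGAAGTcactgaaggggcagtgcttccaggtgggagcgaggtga
Ndufs7: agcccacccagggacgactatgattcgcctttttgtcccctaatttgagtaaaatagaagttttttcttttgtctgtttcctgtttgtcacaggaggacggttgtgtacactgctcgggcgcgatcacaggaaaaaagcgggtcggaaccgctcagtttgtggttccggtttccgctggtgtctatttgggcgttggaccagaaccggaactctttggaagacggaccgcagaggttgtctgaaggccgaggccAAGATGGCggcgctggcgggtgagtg
Uqcrc2: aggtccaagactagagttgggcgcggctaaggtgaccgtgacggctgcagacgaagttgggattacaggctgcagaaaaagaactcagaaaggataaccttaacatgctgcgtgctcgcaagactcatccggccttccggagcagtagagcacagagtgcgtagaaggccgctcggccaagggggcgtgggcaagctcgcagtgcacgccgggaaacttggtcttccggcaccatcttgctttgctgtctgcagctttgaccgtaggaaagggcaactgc

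Of the 75 tested nuclear genes, 65 were matched by symbol to 62 distinct promoters, searched on both strands over windows of 300 bases. The ETS motif CCGGAAGT was found in 8 of 62 (12.9%) and in 4.01% of all 27457 promoters of the table. The NRF1 motif GCATGCGC was found in 8 of 62 (12.9%) and in 2.66% of all, and the YY1 motif AAGATGGC in 14 of 62 (22.6%) and in 3.44% of all. At least 1 of the 3 motifs was present in 25 of 62 (40.3%) and in 9.42% of all promoters. These matches describe the letters of the windows and say nothing about binding in these slices.

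As a class, the 75 nuclear genes had median log2 fold changes of -0.12 with SKF+Aβ, -0.24 with SKF+Aβ+CSP, 0.10 with SKF+Aβ+CSP‐TTK21 and 0.02 with CSP‐TTK21 alone, all against the same SKF libraries. Higher than SKF were 28, 19, 51 and 41 of the 75, and the others were lower. At an unadjusted p-value under 0.05 in edgeR, 7 were higher and 7 lower with SKF+Aβ (9.33% each), 2 higher and 17 lower with SKF+Aβ+CSP (2.67 and 22.7%), 12 higher and 3 lower with SKF+Aβ+CSP‐TTK21 (16.0 and 4%), and 3 higher and 1 lower with CSP‐TTK21 alone (4% and 1.33%). The shares of all genes at this level are those given above for the mitochondrial class, and the shares with SKF+Aβ and with CSP‐TTK21 alone were close to them or below. Of the nuclear genes, 18 were higher and 21 lower than SKF in all 4 comparisons, where 13 of 13 mitochondrial genes were higher. The sign of the nuclear median was not kept in every fit without a library, since it was 0.02 for SKF+Aβ without SKF+Aβ replicate 1. Without SKF replicate 1 it was -0.01 for SKF+Aβ+CSP‐TTK21 and -0.13 for CSP‐TTK21 alone. The median of the mitochondrial class exceeded that of the nuclear class by 0.52, 0.78, 0.60 and 0.46. Without SKF replicate 1 the excess was 0.29, 0.50, 0.35 and 0.24, and without SKF replicate 2 it was 0.82, 1.05, 0.91 and 0.72.

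**Figure D3:**
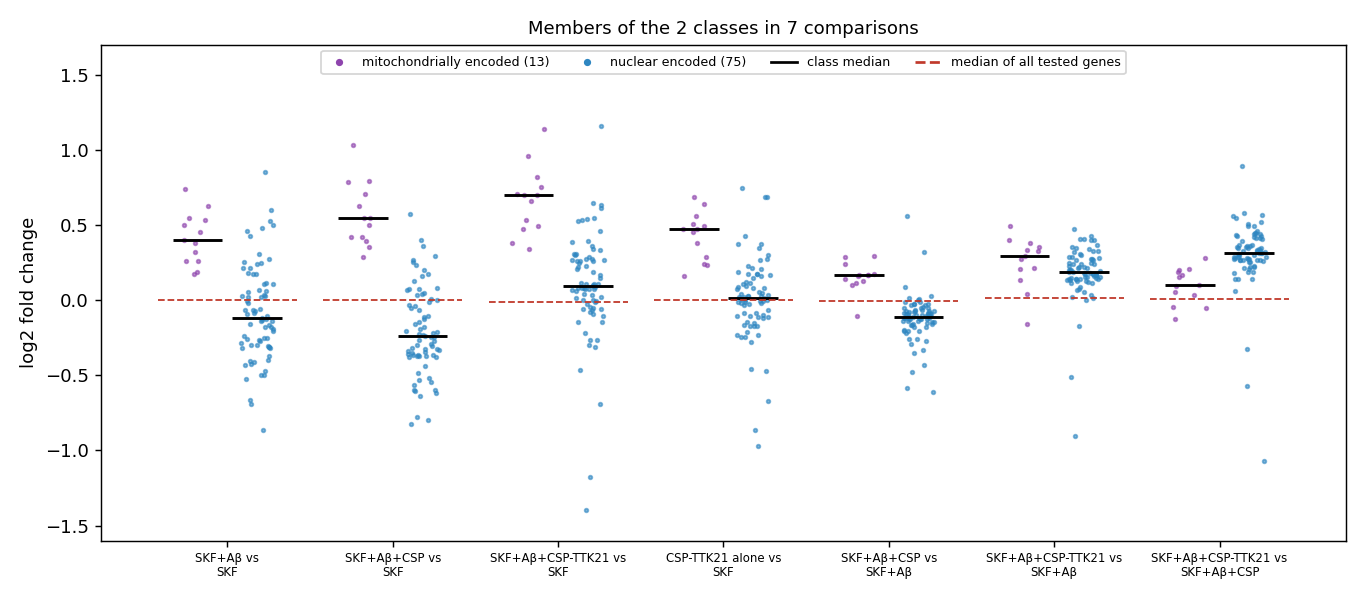
Log2 fold change of each tested member in 7 comparisons, with 13 mitochondrially encoded and 75 nuclear encoded genes, class medians as black lines and the median of all tested genes as a dashed line. The mitochondrial median lies above the nuclear median in 6 comparisons and below it, at 0.10 and 0.32, for SKF+Aβ+CSP‐TTK21 against SKF+Aβ+CSP.

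Other nuclear genes at the ends of the class are given with their levels. Ndufs5, an accessory subunit of complex I, had 17.6 and 20.8 normalized CPM in SKF, 37.4 and 31.9 with SKF+Aβ, 18.3 and 28.1 with SKF+Aβ+CSP, 49.5 and 36.2 with SKF+Aβ+CSP‐TTK21, and 18.3 and 46.1 with CSP‐TTK21 alone. The spread within the last group covered most of the range of all libraries. Its log2 fold change was 1.16 for SKF+Aβ+CSP‐TTK21 vs SKF (standard error 0.33, adjusted p = 0.124 in edgeR), the highest of the nuclear class, and 0.85 for SKF+Aβ vs SKF (standard error 0.34, adjusted p = 0.157 in edgeR). Cox6c, an accessory subunit of complex IV, had 81.6 and 134 in SKF and 120.5 to 172 in the other 8 libraries, and its log2 fold change was 0.64 in the comparison of SKF+Aβ+CSP‐TTK21 with SKF (standard error 0.20, adjusted p = 0.134 in edgeR). Ndufb5, of the membrane arm of complex I, had 17.97 and 25.8 in SKF and 25.1 to 37.6 elsewhere. Atp5s, a factor associated with the ATP synthase but no core subunit, had 6.36 and 7.88 in SKF and 8.38 to 13.3 elsewhere. Atp5sl, likewise not a core subunit, was among the highest for CSP‐TTK21 alone vs SKF at 0.69 (adjusted p = 0.633 in edgeR) through replicate 1, which had 49.4 normalized CPM against 21.3 in replicate 2.

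**Figure D4:**
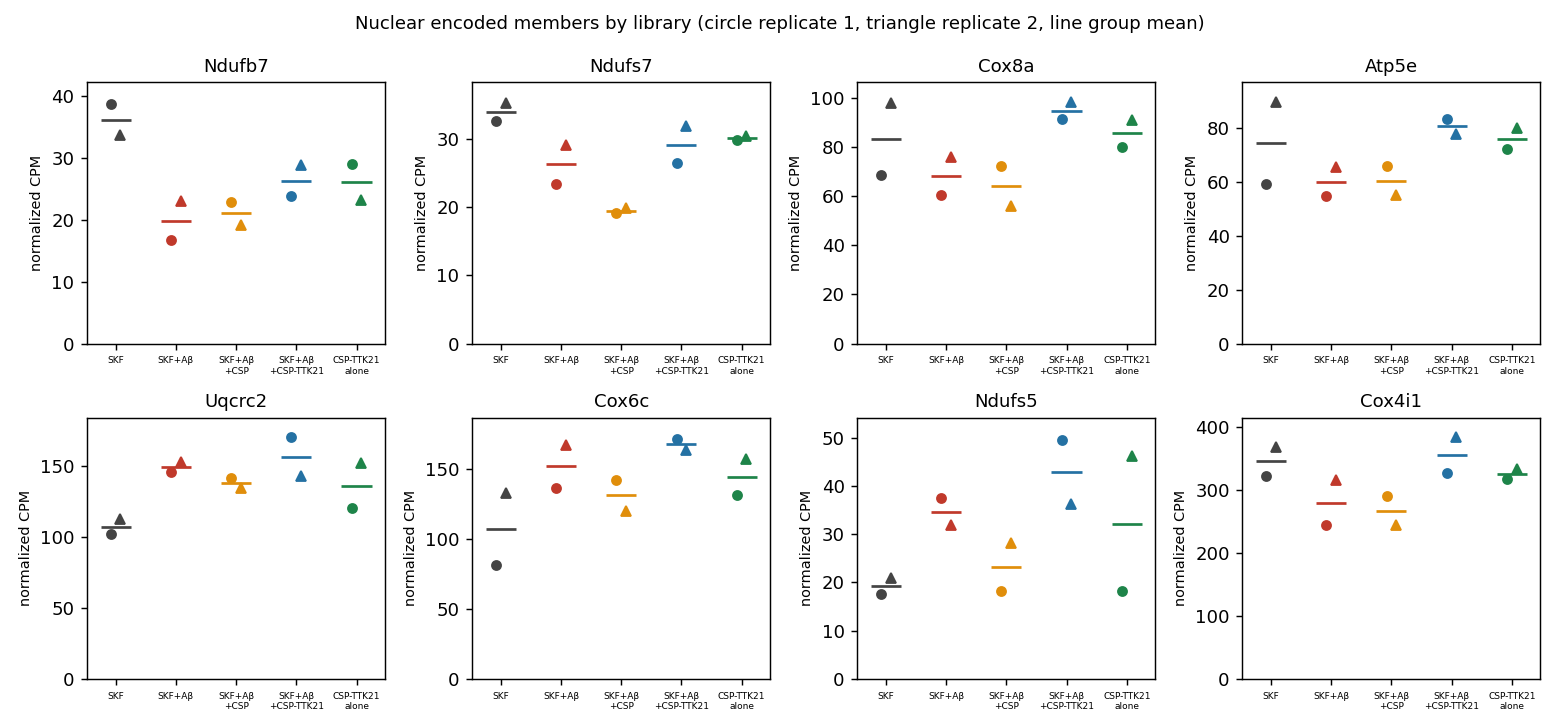
Normalized CPM of 8 nuclear encoded members in each library, with circles for replicate 1, triangles for replicate 2 and lines for group means (n = 2). Ndufb7 and Ndufs7 are highest in SKF, Uqcrc2 is lowest in SKF, and Cox8a, Atp5e and Cox4i1 are higher in both SKF+Aβ+CSP‐TTK21 libraries than in both SKF+Aβ+CSP libraries.

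Low ends of the class in the comparison of SKF+Aβ+CSP with SKF+Aβ were Ndufs5 at -0.59 and Ndufc1 at -0.48. Most other genes at the low ends of comparisons, and those with the fewest counts in a complex, were rows with few counts. Ndufa4l2, which is known as a gene induced by low oxygen, had 4 to 15 counts per library. Cox4i2, the isoform of Cox4 known from lung, had 7 to 20, the row ENSRNOG00000009521 of Uqcr10 had 3 to 14, the pseudogene Ndufv3-ps1 had 1 to 13 and the row ENSRNOG00000034161 of Cox6b1 had 9 to 14. Uqcr10, Cox6b1, Cox7a2, Ndufa13 and Atp5f1 were each listed under 2 gene identifiers, so that their reads could be split. The 12 nuclear members that were not tested held 0 to 73 counts over all 10 libraries. Among them were the muscle isoforms Cox6a2 (12 counts) and Cox8b (26), and the testis isoforms Cox6b2 (54), Cox7b2 (8) and Cox8c (1). Cox6c1 (3), Ndufb4l1 (0), Atp5hl1 (38), Ndufa1 (1), the row ENSRNOG00000021688 of Ndufa13 (18) and both rows of Atp5f1 (4 and 73) were also not tested, although Ndufa1 and Atp5f1 encode subunits that complexes I and V have in every tissue.

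The tested nuclear members with the most counts in each complex were Ndufs1 with 996 to 1586 counts per library, Sdha with 1121 to 1640, Uqcrc2 with 740 to 1333, Cox4i1 with 1669 to 2767 and Atp5b with 4971 to 7265. Atp5b, the catalytic beta subunit of the ATP synthase, had 877 and 892 normalized CPM in SKF, 719 and 940.1 with SKF+Aβ, 819 and 729 with SKF+Aβ+CSP, 929 and 945 with SKF+Aβ+CSP‐TTK21, and 834 and 954 with CSP‐TTK21 alone. Both SKF+Aβ+CSP libraries were below and both SKF+Aβ+CSP‐TTK21 libraries above the SKF libraries, while the other groups overlapped with SKF. The log2 fold changes of Atp5b against SKF were -0.09, -0.19, 0.08 and 0.02 (standard error 0.14), with adjusted p-values of 0.494 or more in edgeR. Sdha, the flavoprotein of complex II that oxidizes succinate, had log2 fold changes of -0.06, -0.18, 0.07 and 0.08 (standard error 0.13). Sdhd, a membrane anchor of complex II and its member with the fewest counts at 259 to 427, had 0.22, 0.08, 0.39 and 0.28. Ndufs1, the iron-sulfur subunit that receives electrons in the peripheral arm of complex I, had 0.28, 0.18, 0.46 and 0.16 (standard error 0.15), with adjusted p-values of 0.147 or more in edgeR.

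The 3 comparisons among the groups with SKF and Aβ share libraries with each other, and their values are given side by side. When SKF+Aβ+CSP‐TTK21 was set against SKF+Aβ+CSP, from which it differs by TTK21 on the carrier, 72 of 75 nuclear genes were higher with TTK21, with a median log2 fold change of 0.32 and a median of 0.01 over all genes. The summed nuclear class was at 6201 and 5510 normalized CPM with SKF+Aβ+CSP and at 7170 and 7438 with SKF+Aβ+CSP‐TTK21, and the groups did not overlap. In the same comparison 10 of 13 mitochondrial genes were higher, with a median of 0.10. The median of the nuclear class stayed between 0.24 and 0.45 when any library was left out, and that of the mitochondrial class was between -0.02 and 0.27. Between the 2 libraries of a group the nuclear class differed in a like way, with a median log2 difference (replicate 2 minus replicate 1) of 0.31 in the SKF+Aβ group (68 of 75 genes higher), -0.18 in the SKF+Aβ+CSP group (14 of 75 higher), 0.08 in the SKF+Aβ+CSP‐TTK21 group (51 of 75 higher) and 0.18 in the group CSP‐TTK21 alone (61 of 75 higher). The 72 of 75 and its median are thus close to what separates the SKF+Aβ libraries. Several cell type marker lists also did not overlap between these groups. Astrocyte markers were at 1136 and 1030 normalized CPM with SKF+Aβ+CSP and at 1514 and 1405 with SKF+Aβ+CSP‐TTK21, microglia markers at 58.4 and 48.5 and then 70.2 and 105, and endothelial markers at 81.6 and 60.7 and then 35.3 and 34.2. Sums of interneuron, dentate granule, CA3 and erythrocyte markers were higher in both SKF+Aβ+CSP‐TTK21 libraries, and those of CA1 pyramidal, neuron, meningeal and choroid plexus markers overlapped. The part of these markers in the difference was not tested.

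No member passed an adjusted p-value of 0.05 in this comparison in edgeR, DESeq2 or limma-trend, where edgeR called 0% and DESeq2 0.177% of all genes. At an unadjusted p-value under 0.05 in edgeR, 20 of 75 nuclear genes were higher (26.7%), against 3.17% of all genes, and 1 was lower, against 5.61%. The gene that was lower was Cox4i2, one of the rows with few counts. None of the mitochondrial genes passed this level in either direction. Cox8a, a small subunit of complex IV, had 72.1 and 56.0 normalized CPM with SKF+Aβ+CSP and 91.4 and 98.1 with SKF+Aβ+CSP‐TTK21, so that its log2 fold change was 0.56 with a standard error of 0.19 (adjusted p = 0.542 in edgeR). Cox4i1, the main isoform of the largest nuclear subunit of complex IV, had 290.3 and 245 and then 327 and 385 (0.41, standard error 0.15). Ndufc1, a small membrane-arm subunit of complex I, had 13.2 and 11.3 and then 18.2 and 18.2 (0.57, standard error 0.23).

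When SKF+Aβ+CSP‐TTK21 was set against SKF+Aβ, 71 of 75 nuclear genes and 12 of 13 mitochondrial genes were higher, with medians of 0.18 and 0.30. The nuclear median was smaller than the difference of 0.31 between the SKF+Aβ libraries. The nuclear median was between 0.07 and 0.33 and the mitochondrial median between 0.13 and 0.44 over the fits without single libraries. Called in edgeR, DESeq2 and limma-trend were 0 members, and 0% of all genes in edgeR and in DESeq2. Astrocyte markers, at 1217 and 1098 normalized CPM with SKF+Aβ, and endothelial markers, at 63.0 and 48.4, did not overlap with the SKF+Aβ+CSP‐TTK21 values either. At an unadjusted p-value under 0.05, 4 nuclear genes were higher, against 2.52% of all genes, and 0 were lower, against 4.06%. Cox8a (0.47), Atp5e (0.43), Cox4i1 (0.35) and the main row of Cox6b1 (0.40) were those 4. Atp5e, the epsilon subunit of the ATP synthase, had 54.6 and 65.4 normalized CPM with SKF+Aβ and 83.3 and 77.8 with SKF+Aβ+CSP‐TTK21.

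Between SKF+Aβ+CSP and SKF+Aβ, 69 of 75 nuclear genes were lower and 12 of 13 mitochondrial genes were higher, with medians of -0.12 and 0.16. Both replicate differences of the nuclear class, 0.31 and -0.18, were larger in size than its median. The summed nuclear class of SKF+Aβ was at 5638 and 7016 normalized CPM, a range that holds 1 of the SKF+Aβ+CSP libraries. Without replicate 2 of SKF+Aβ the nuclear median was 0.07, and without replicate 1 of SKF+Aβ+CSP the mitochondrial median was -0.02, so that neither direction was kept in every fit. Called were 0 members in the 3 tools, 0% of all genes in edgeR and 0.00665% in DESeq2, and 1 nuclear gene, Ndufs7 at -0.43, was lower at an unadjusted p-value under 0.05, against 0.552% of all genes, with 0 higher, against 1.63%.

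By complex, as assigned from gene names, the nuclear medians lay close to each other. Against SKF they were between -0.20 and -0.09 with SKF+Aβ, between -0.29 and -0.15 with SKF+Aβ+CSP, between 0.08 and 0.14 with SKF+Aβ+CSP‐TTK21 and between -0.03 and 0.11 with CSP‐TTK21 alone. Complex II, which has no mitochondrially encoded part, had -0.09, -0.15, 0.08 and 0.11 over its 4 genes and so stayed within or near the range of the others. In SKF+Aβ+CSP‐TTK21 against SKF+Aβ+CSP the medians were 0.33 for complex I, 0.29 for II, 0.29 for III, 0.38 for IV and 0.28 for V. The mitochondrial parts of complexes I, IV and V were at 0.10, 0.17 and 0.07 there.

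**Figure D5:**
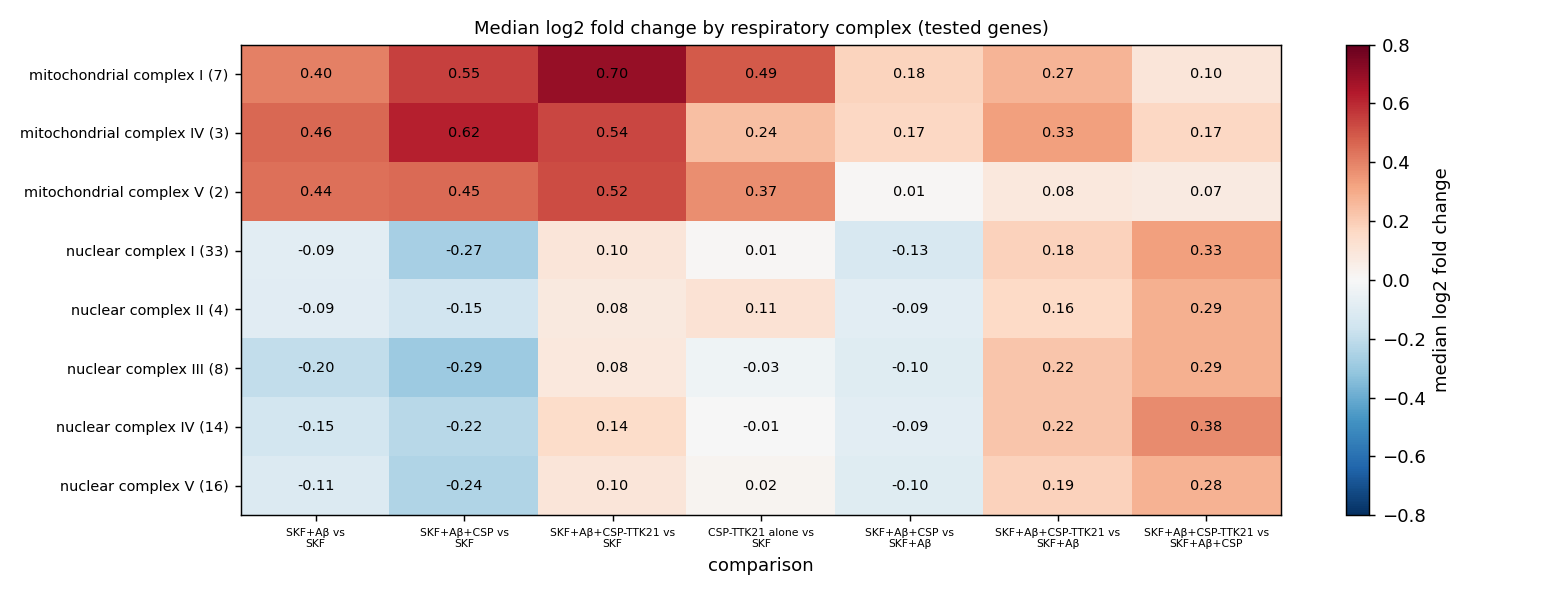
Median log2 fold change of the tested genes of each respiratory complex by genome and comparison, with the number of genes in parentheses and Mt-cytb, the only mitochondrial gene of complex III, left out. Red rows of the mitochondrial parts against SKF, at 0.24 to 0.70, stand above the nuclear parts, at -0.29 to 0.14.

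Other genes of the pathway were read from lists. Of 21 tested genes for the expression of mitochondrial DNA (polymerase, transcription factors, RNA processing), 0 were called in the comparisons with SKF by edgeR, and 5, 3, 4 and 4 were higher and 2, 1, 2 and 0 lower at an unadjusted p-value under 0.05, where 12, 10.3, 10.8 and 4.16% of all genes were higher and 10.9, 9.03, 8.78 and 3.63% lower. Their median log2 fold changes were 0.31, 0.20, 0.16 and 0.12. The gene of lowest p with SKF+Aβ was Fastk at -0.61 (adjusted p = 0.0631 in edgeR). Of 42 tested assembly factors, Cox20, which helps to insert Mt-co2 into complex IV, rose with SKF+Aβ by 1.11 on the log2 scale (standard error 0.20, adjusted p = 0.0326 in edgeR), as 1 of 42 genes where 2.08% of all genes were called. The call of Cox20 was lost without SKF replicate 1, SKF+Aβ replicate 1 or SKF+Aβ replicate 2 (log2 fold changes of 0.92, 1.23 and 0.95). It was also lost with only the 4 libraries compared (adjusted p = 0.0670 in edgeR). Against the same SKF libraries, Cox20 was at 0.93 with SKF+Aβ+CSP, 0.87 with SKF+Aβ+CSP‐TTK21 and 0.61 with CSP‐TTK21 alone. The adjusted p-values in edgeR were 0.0655, 0.0963 and 0.633. The medians of the list were 0.07, -0.02, 0.09 and 0.04. Of 8 nuclear regulators of respiratory genes, the receptor Esrra fell by 0.89 on the log2 scale with SKF+Aβ (standard error 0.20, adjusted p = 0.0433 in edgeR), as 1 of 8. The call of Esrra was lost without either SKF, either SKF+Aβ or either SKF+Aβ+CSP library (log2 fold changes of -1.12 to -0.71). It was also lost with only the 4 libraries compared (adjusted p = 0.102 in edgeR). Against SKF, Esrra was also at -0.78 with SKF+Aβ+CSP and -0.72 with CSP‐TTK21 alone (adjusted p = 0.0885 and 0.633 in edgeR). For SKF+Aβ+CSP‐TTK21 vs SKF+Aβ, Esrra was at 0.48 (adjusted p = 0.746 in edgeR). The medians of the list were -0.13, -0.01, -0.22 and -0.11.

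No other gene of the lists was called by edgeR in any of the 7 comparisons, and their calls in DESeq2 and limma-trend were not counted. The 11 tested citrate cycle genes had medians of -0.05, -0.06, 0.12 and 0.09 against SKF, with Sucla2 at the lowest p with SKF+Aβ (0.55, adjusted p = 0.0747 in edgeR). At an unadjusted p-value under 0.05 with SKF+Aβ were 2 of these 11, and 12 of the 69 tested mitochondrial ribosomal proteins, of which 3 were higher and 9 lower. Of all genes, 12% were higher and 10.9% lower at this level, against 4.35 and 13.04% of the ribosomal proteins. With SKF+Aβ+CSP, 15.9% of the ribosomal proteins and 9.03% of all genes were lower. The mitochondrial ribosomal proteins, which are nuclear encoded and translate the 13 mitochondrial genes, had medians of -0.02, -0.13, 0.05 and 0.01, with Mrps30 at the lowest p (0.76, adjusted p = 0.0750 in edgeR). Cyc1, the cytochrome c1 subunit of complex III that the gene names above do not take in, was at -0.36 with SKF+Aβ (adjusted p = 0.196 in edgeR). Together with Cycs, the electron carrier cytochrome c, it had medians of -0.16, -0.23, 0.07 and 0.01. In the comparison of SKF+Aβ+CSP‐TTK21 against SKF+Aβ+CSP, 10 of 11 citrate cycle genes, 61 of 69 ribosomal proteins and 35 of 42 assembly factors were higher, with medians of 0.23, 0.19 and 0.21, where the genes for mitochondrial DNA expression had -0.02. Other rows of mitochondrial DNA, such as those of its ribosomal RNAs and tRNAs, held 0.0192 to 0.0598% of counts.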

How the data were processed

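RNA from 10 libraries (5 groups, 2 each) was depleted of ribosomal RNA and sequenced in pairs. For the authors' processing, the methods of the study name Trim Galore, duplicate removal with Samtools, TopHat2 and Cufflinks with Rnor_6.0 and, later, mm10, while the submitters' processing notes name STAR, RSEM, HISAT2, Salmon and GRCh38. The authors deposited raw counts per rat Ensembl gene, and the program that made these counts, its build and its use of strand are not given in the sources used here. Removal of duplicates can lower counts on densely covered transcripts, an effect whose size was not measured.

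Counts of 15032 genes (filterByExpr by group) were normalised by TMM and fitted in edgeR 4.0.16 (R 4.3.3) with group means over all 10 libraries, no covariate and quasi-likelihood F tests for 7 comparisons and for all 5 groups. P-values were adjusted by Benjamini-Hochberg over all tested genes and genes called under 0.05. Log2 CPM for replicate differences and limma-trend used a prior count of 2, and edgeR fold changes used its default prior count. Standard errors were derived as the size of the log2 fold change fitted without a prior count, divided by the square root of the F statistic. The common biological coefficient of variation was 0.136. DESeq2 1.42.0, limma-trend 3.58.1, other scalings and filters, a replicate block and fits without single libraries were alternatives. The code was tested on simulated data. The study describes its RNA-seq repeats as biological replicates (n = 2), while the labels do not say that replicates of a group are separate animals. P-values measure the spread between these libraries, which differed by more than sampling noise (chi-square per degree of freedom 4.97 to 12.6). Intervals of counting error were not used.

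The rule for the members uses gene names alone, but this rule and the lists were chosen with earlier results of these data known. Named were all Mt- genes, in each complex the tested nuclear genes with the most and fewest counts, up to 3 nuclear genes at each end of the fold changes of a comparison, called genes, and tissue isoforms and untested genes by their counts. Promoters are from RefSeq (GRCr8), matched by symbol, and sequences of mitochondrial genes and proteins were not used here. 1 list of cell type markers is not reported here.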

Additional observations from a re-analysis of the deposited data

How the results depend on the processing

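The differences between class medians (mitochondrial minus nuclear) kept their sign in all alternatives except SKF+Aβ+CSP‐TTK21 vs SKF+Aβ without single libraries (-0.05 to 0.26). Over fits without single libraries they were 0.20 to 0.82 for SKF+Aβ, 0.50 to 1.05 for SKF+Aβ+CSP, 0.35 to 0.91 for SKF+Aβ+CSP‐TTK21 and 0.24 to 0.72 for CSP‐TTK21 alone, all against SKF, 0.11 to 0.44 for SKF+Aβ+CSP vs SKF+Aβ, and -0.28 to -0.14 for SKF+Aβ+CSP‐TTK21 against SKF+Aβ+CSP. Without single libraries, single genes changed sign, with ranges of -0.21 to 0.95 for Mt-atp8, -0.14 to 0.58 for Mt-cox3 and -0.14 to 0.79 for Mt-nd3 in SKF+Aβ, -0.11 to 0.84 for Mt-atp8 in SKF+Aβ+CSP, -0.012 to 0.79 for Mt-atp8 in SKF+Aβ+CSP‐TTK21, and -0.057 to 0.74 for Mt-atp8, -0.076 to 0.64 for Mt-cox3, -0.031 to 0.37 for Mt-co2 and -0.22 to 0.89 for Mt-nd4l in CSP‐TTK21 alone. These lower ends came without SKF replicate 1, except for Mt-atp8 in SKF+Aβ (without SKF+Aβ replicate 1) and in SKF+Aβ+CSP (without SKF+Aβ+CSP replicate 1).

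Counts of members called were the least stable values. In SKF+Aβ vs SKF the count of 1 became 0 with a log2 fold beyond 1.5 or with only the 4 libraries compared, 18 at an unadjusted p, 10 with no filter on low counts, 6 in DESeq2 and 0 to 4 without single libraries, the 4 (Cox6c, Mt-co1, Mt-nd2 and Mt-nd4) without SKF replicate 2. From 0, SKF+Aβ+CSP vs SKF went to 28 at an unadjusted p, 16 with no filter, 1 with at least 10 counts in every library, 9 in DESeq2 and 0 to 2 without single libraries (2 without SKF replicate 2). From 0, SKF+Aβ+CSP‐TTK21 vs SKF went to 26 at an unadjusted p, 15 with no filter, 10 in DESeq2 and 0 to 11 without single libraries (11 without SKF replicate 2). CSP‐TTK21 alone vs SKF went from 0 to 10 and 7, while SKF+Aβ+CSP‐TTK21 against SKF+Aβ+CSP went from 0 to 21 and 2, at an unadjusted p and with no filter. At an unadjusted p, SKF+Aβ+CSP vs SKF+Aβ had 1 and SKF+Aβ+CSP‐TTK21 vs SKF+Aβ had 4. Over the 5 groups the count of 0 became 16 at an unadjusted p, 21 with no filter and 4 in DESeq2. The counts over all genes moved too: with no filter, from 312 to 1311 for SKF+Aβ, 3 to 754 for SKF+Aβ+CSP, 1 to 902 for SKF+Aβ+CSP‐TTK21 and 0 to 157 for CSP‐TTK21 alone against SKF (25251 genes tested), and in DESeq2 to 822, 452, 355 and 3. Without SKF replicate 2 they were 174, 5, 335 and 0. The 312 genes called for SKF+Aβ vs SKF fell to 1 and 13 without SKF+Aβ replicate 1 and 2, 11 without SKF replicate 1, 26 without either SKF+Aβ+CSP library, 181 without replicate 1 of CSP‐TTK21 alone and 12 with only the 4 libraries compared. Counts over all genes rose from 0 to 307 for SKF+Aβ+CSP‐TTK21 against SKF+Aβ+CSP with no filter. For SKF+Aβ+CSP vs SKF they rose from 3 to 54 with at least 10 counts in every library. Over the 5 groups they rose from 1 to 1401 with no filter and 407 in DESeq2. Why no filter gave more calls was not tested.

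With the replicate number as a replicate block, 1 member (Mt-nd4) was called in SKF+Aβ+CSP‐TTK21 vs SKF, and the other counts of members called did not move. Correlations of same-numbered libraries were between -0.07 and 0.24, and with 2 pairs per comparison and no shared source in the labels they were not treated as pairs. Over all genes the replicate block moved the calls in that comparison from 1 to 108.

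With 2 libraries per group and total counts of this size, rows with few counts and differences near the spread between the SKF libraries are not resolved.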
